A study of Mus musculus with 24 samples.

Results

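Stat2, Irf9, Irf1, Isg15, Ifit3, Plscr1, Cxcl1, Cxcl9 and Cxcl10 are 9 genes of the interferon response and of the chemokines that accompany it. They were taken by name from the 9049 genes of the deposited table, where all 9 were listed, and followed across the 4 groups of mice. They were chosen by their values in earlier results of these same data, over the diet and time groups and with no stated threshold, so the values below describe these 9 genes, and the adjusted p-values place each one among the 9049 genes rather than test the choice.

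RNA from the livers of 24 male C57BL6/J mice, 2 months old, was measured by sequencing from the 3′ end of transcripts, with 6 mice in each of 4 groups called Con_3h, MR_3h, Con_6h and MR_6h. Con mice ate a control diet with 0.86% methionine and MR mice a methionine-restricted diet with 0.17%. Before that, every mouse was accustomed to the control diet with food withheld during the lights-on period, and the diets differed from the moment food was returned at lights off, 3 h or 6 h before the livers were taken. The later time therefore also means more hours of feeding and another hour of the day, and these cannot be told apart. By the paper's list of dietary amino acids, the MR diet also held more glutamic acid, and neither diet held cystine. The labels give no genotype or other agent beside the diet.

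Interferons bind cell-surface receptors whose JAK kinases phosphorylate STAT proteins. Type I interferons lead mainly to a complex holding STAT2 and IRF9 that binds the interferon-stimulated response element (ISRE), while interferon-gamma acts through gamma-activated sites (GAS) and the transcription factor IRF1. In liver, hepatocytes as well as Kupffer cells, the resident macrophages, carry out this response. CXCL9 and CXCL10 are interferon-inducible chemokines that attract T cells through CXCR3, and CXCL1 attracts neutrophils through CXCR2 and is an NF-kappaB target.

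The stretches of promoter below are shown because they hold letter matches to different response element patterns. They come from the RefSeq sequences of GRCm38.p6, run 5′ to 3′ along the gene's strand and lie within the 250 bases before a RefSeq start. For Ifit3 that start, at base 34583529 of chromosome 19, lies 410 bases inside the annotated gene, so only 30 bases around the nearer of its 2 matches are shown. Capitals mark matches to the ISRE core GAAANNGAAA, to the GAS pattern TTCNNNGAA or to the kappaB pattern GGGNNTTTCC, each searched on both strands.
Isg15, ISRE core, chr4:156200860-156200911, minus strand: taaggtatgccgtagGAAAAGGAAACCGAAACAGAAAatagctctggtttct
Ifit3, ISRE core, chr19:34583397-34583426, plus strand: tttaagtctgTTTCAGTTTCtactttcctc
Stat2, ISRE core, chr10:128270261-128270300, plus strand: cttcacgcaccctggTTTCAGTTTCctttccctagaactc
Cxcl10, ISRE core, chr5:92349078-92349117, minus strand: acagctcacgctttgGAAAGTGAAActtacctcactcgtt
Irf1, GAS, chr11:53769909-53769947, plus strand: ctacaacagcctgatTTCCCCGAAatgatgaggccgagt
Plscr1, GAS, chr9:92250089-92250127, plus strand: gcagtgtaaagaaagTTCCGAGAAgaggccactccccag
Cxcl1, kappaB, chr5:90891141-90891198, plus strand: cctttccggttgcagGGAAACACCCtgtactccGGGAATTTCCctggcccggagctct

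The 9 genes all matched a RefSeq window. The ISRE core was present in the windows of 4 of them, the GAS pattern in those of 2 and the kappaB pattern in that of 1. Among 32851 promoter windows of the same length, 2.98% held the ISRE core, 7.02% the GAS pattern and 1.41% the kappaB pattern. Isg15 held 3 matches to the ISRE core, which overlap each other, and Ifit3 held 2, whereas 0.180% of all windows held 2 or more. Cxcl1 held 2 matches to the kappaB pattern, and 0.0244% of all windows held 2 or more. None of the 3 patterns was present in the window of Cxcl9 or in either window of Irf9. A match to these letters is a description of the sequence, not of binding. Cxcl9 (chr5:92321331-92328079) and Cxcl10 (chr5:92346638-92348889) are neighbours, 18558 bases apart.

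Levels are given in scaled units, which are the deposited score after a further correction for composition, and cannot be turned into reads. Overlap and rank were judged in scaled units, where mice with the same deposited whole number can differ. A log2 fold change is the difference of group means of log2(scaled units + 1), so it understates the change of a gene with a low level such as Cxcl10. A gene is said to pass where its Benjamini-Hochberg adjusted p from limma, over all 9049 genes, lay below 0.05. The mouse groups were also compared by an exact two-sided permutation test over 12 mice, whose smallest possible p is 0.00216. Because the liver was measured in bulk, fewer cells of a type and less RNA per cell cannot be told apart.

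The deposited columns were of nearly equal size, with totals of 991702 to 995314. Hepatocyte markers (14 of 15 listed) were present in every library, which fits the labelled tissue. Mouse 4238 of Con_6h had a summed Kupffer cell and macrophage marker level of 2097 units against at most 1150 in the other libraries. Mouse 4223 of MR_3h had 1745 units of pancreas markers, and mouse 4214 of MR_6h had 461 units of adrenal markers. Calls that change without these 3 libraries are given with and without them, as are several estimates of the chemokines.

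Between 3 h and 6 h, Isg15, Ifit3 and Irf9 rose in the mice on the MR diet, and Isg15, Ifit3 and Plscr1 rose in the mice on the Con diet. Isg15 rose 2.92-fold in MR mice by the ratio of group means and Ifit3 2.36-fold, and in Con mice Ifit3 rose 1.74-fold. Irf1, Stat2 and the 3 chemokines passed in neither diet. Between the diets, Plscr1 was lower with MR at 6 h, a call that depended on single mice and was lost without the 3 libraries.

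Read across the 9 genes, MR against Con at 3 h gave 0 that passed, as it did over all genes, where percent called was 0 and 603 genes (6.66%) had an unadjusted p under 0.05. All 9 log2 fold changes were negative, with a median of -0.29, while 49.9% of all genes were negative. The estimates of Irf9, Stat2 and Plscr1 were within 0.07 of 0, and each changed sign when some single mouse was left out. MR against Con at 6 h gave 1 of 9 (Plscr1, lower), beside 0.740% of all genes called in either direction and 0.133% called lower. The 9 estimates had a median of -0.09, and 4 of 9 were above 0 beside 51.5% of all genes. The difference between the diet effects at the 2 times gave 0 of 9, with 6 of all genes called (0.0663%) and 6.83% at an unadjusted p under 0.05, among them Plscr1 and Isg15. Of the 9 estimates 7 were above 0, beside 50.4% of all genes.

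Con at 6 h against Con at 3 h gave 3 of 9, all higher, beside 19.6% of all genes called and 9.23% called higher. In scaled units the groups did not overlap for Ifit3, and 2.87% of all genes were higher without overlap. In the deposited whole numbers Ifit3 tied at 14 between mouse 4241 of Con_6h and mice 4217 and 4218 of Con_3h. MR at 6 h against MR at 3 h also gave 3 of 9, all higher, beside 28.1% of all genes called and 13.9% called higher. Here 3 of 9 were higher without overlap (Isg15, Ifit3 and Irf9), as were 7.93% of all genes. The 2 time comparisons hold different mice. The members' shares in the time comparisons rest on 3 genes each.

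Stat2 encodes the STAT protein that joins IRF9 after type I interferon signalling (chr10:128270498-128292853). Its lowest, median and highest levels over 6 mice were 31.1, 37.1 and 51.6 units in Con_3h, and 32.2, 37.7 and 40.5 in MR_3h. In Con_6h they were 32.9, 33.9 and 39.5 units, and in MR_6h 34.9, 39.1 and 42.2. The 4 groups overlapped throughout. With a log2 fold change of 0.14 (SE 0.09) for MR against Con at 6 h, 3 of 6 MR mice lay above every Con mouse, and the gene did not pass (adjusted p = 0.465 by limma, exact p = 0.0606).

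Irf9 encodes the DNA-binding subunit of the same complex (chr14:55603985-55610030). Levels ran from 21.4 over a median of 31.3 to 42.8 units in Con_3h and from 22.5 over 31.1 to 33.4 in MR_3h. In Con_6h they ran from 31.0 over 40.4 to 48.3 units, and in MR_6h from 42.8 over 48.4 to 52.1. Every MR mouse at 6 h was above every MR mouse at 3 h. Group means were 30.2 ± 4.04 and 47.5 ± 3.67 units (SD, n = 6), a log2 fold change of 0.65 (SE 0.12, adjusted p = 0.000255 by limma). In Con mice the change from 3 h to 6 h was 0.32 (SE 0.12) and did not pass (adjusted p = 0.0608 by limma, exact p = 0.0563). That change passed without mouse 4218 of Con_3h (0.42, adjusted p = 0.0116), without mouse 4238 of Con_6h (0.39, adjusted p = 0.0206) and without the 3 libraries that stood apart (0.39, adjusted p = 0.0283), all by limma. Mouse 4238 had the lowest Irf9 of Con_6h. At 6 h, 3 of 6 MR mice were above every Con mouse, and the log2 fold change of 0.25 (SE 0.12) did not pass (adjusted p = 0.342 by limma, exact p = 0.0152). Of these 3, mouse 4219 had a deposited score of 46, below the 47 of mouse 4234 of Con_6h.

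Irf1 encodes a factor that binds ISRE-like sites and is a direct target of interferon-gamma (chr11:53770014-53778374). In Con_3h its levels ran from 14.3 over a median of 19.6 to 27.2 units, and in MR_3h from 13.7 over 15.1 to 22.3. In Con_6h they ran from 17.3 over 19.6 to 22.6 units and in MR_6h from 13.1 over 19.8 to 21.4. All groups overlapped, and the log2 fold changes lay between -0.29 (MR against Con at 3 h, SE 0.14, adjusted p = 0.741 by limma) and 0.15 (MR at 6 h against MR at 3 h, SE 0.14, adjusted p = 0.462).

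**Figure D1:**
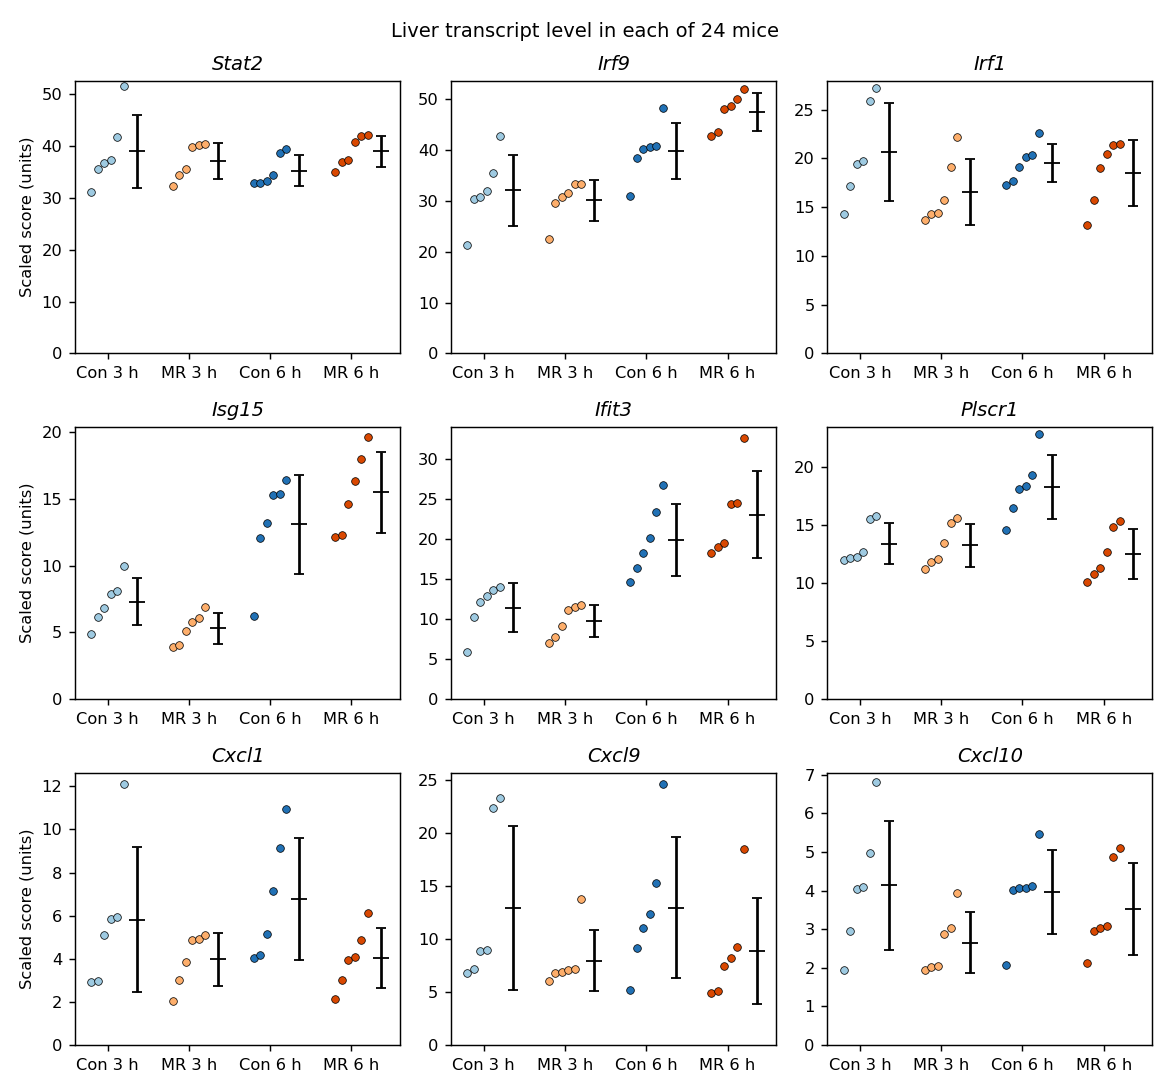
Scaled level of each of the 9 genes in each of the 24 mice. Each panel is 1 gene, the vertical axis is in scaled units from 0, each point is 1 mouse (6 per group), and the bar beside each group is the mean ± SD. Isg15 and Ifit3 are higher at 6 h in both diets, Irf9 in MR mice lies at 42.8 units or above at 6 h and at 33.4 or below at 3 h, and Plscr1 is highest in Con mice at 6 h.

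Isg15 encodes a ubiquitin-like protein that is secreted and also joined to other proteins (chr4:156199424-156200818). Its lowest, median and highest levels were 4.86, 7.35 and 9.96 units in Con_3h and 3.91, 5.44 and 6.89 in MR_3h. They were 6.24, 14.2 and 16.4 units in Con_6h and 12.1, 15.5 and 19.6 in MR_6h. In MR mice the 2 times did not overlap, with means of 5.30 ± 1.18 and 15.5 ± 3.05 units and a log2 fold change of 1.39 (SE 0.18, adjusted p = 6.51e-06 by limma). In Con mice 5 of 6 at 6 h were above every mouse at 3 h. The exception was mouse 4241, at 6.24 units, and the log2 fold change was 0.74 (SE 0.18, adjusted p = 0.00653 by limma). The change was thus 0.65 larger in MR mice on the log2 scale (SE 0.26). That difference had an unadjusted p of 0.0203 and did not pass over all genes (adjusted p = 0.645 by limma). At 3 h the MR mean was lower than the Con mean (log2 fold change -0.39, SE 0.18, adjusted p = 0.739) and at 6 h it was higher (0.26, SE 0.18, adjusted p = 0.531), and neither passed by limma. Without mouse 4241 the estimate at 6 h was 0.079.

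Ifit3 encodes a tetratricopeptide-repeat protein of antiviral defence (chr19:34583119-34588982). The neighbouring copy Ifit3b, a near-identical gene, was not analysed here, and reads from it could be counted as Ifit3. Levels ran from 5.83 over a median of 12.5 to 13.9 units in Con_3h and from 7.06 over 10.2 to 11.8 in MR_3h. In Con_6h they ran from 14.6 over 19.2 to 26.7 units and in MR_6h from 18.2 over 21.9 to 32.7. The 2 times were separate in MR mice. In Con mice they were separate in scaled units but tied at 14 in the deposited score. The log2 fold change was 0.77 in Con mice (SE 0.18, adjusted p = 0.00457 by limma) and 1.15 in MR mice (SE 0.18, adjusted p = 5.06e-05 by limma). The difference between these changes was 0.38 (SE 0.26, adjusted p = 0.813), with a 95% interval from -0.15 to 0.92. MR and Con overlapped at both times, with log2 fold changes of -0.18 at 3 h and 0.20 at 6 h.

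Plscr1 encodes a phospholipid scramblase that interferon induces and that contributes to antiviral defence (chr9:92250194-92272561). Its lowest, median and highest levels were 11.9, 12.5 and 15.8 units in Con_3h and 11.2, 12.8 and 15.6 in MR_3h. They were 14.6, 18.2 and 22.8 units in Con_6h and 10.1, 11.9 and 15.3 in MR_6h. Con_6h was thus the high group, and 4 of 6 MR mice at 6 h were below every Con mouse of that time. At 6 h the means were 18.3 ± 2.79 units in Con and 12.5 ± 2.17 in MR, a log2 fold change of -0.52 (SE 0.11, adjusted p = 0.0236 by limma, exact p = 0.00649). In Con mice Plscr1 rose from 3 h to 6 h by 0.42 on the log2 scale (SE 0.11, adjusted p = 0.00909 by limma), and 5 of 6 mice at 6 h were above every mouse at 3 h. Among these 5, mouse 4234 had a deposited score of 16, as had mice 4215 and 4220 of Con_3h. In MR mice the change was -0.08 (SE 0.11, adjusted p = 0.615). The difference between the diet effects at the 2 times was -0.50 (SE 0.16), with an unadjusted p of 0.00363 and an adjusted p of 0.426 by limma over all genes.

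The lower Plscr1 with MR at 6 h depended on single mice for its call. The direction stayed the same with each mouse left out, with log2 fold changes from -0.58 to -0.45, but adjusted p-values by limma rose to 0.0530 without mouse 4221 and 0.0547 without mouse 4238 of Con_6h. They rose to 0.0605, 0.0647 and 0.0702 without mouse 4214, 4229 or 4242 of MR_6h. Without the 3 libraries that stood apart the change was -0.42 (adjusted p = 0.142), and with only the 6 h libraries in the fit it was -0.52 (adjusted p = 0.0732). The rise of Plscr1 in Con mice passed with each mouse left out, with adjusted p-values up to 0.0232 by limma.

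Cxcl1 encodes a neutrophil chemokine (chr5:90891245-90893121). Levels ran from 2.91 over a median of 5.48 to 12.1 units in Con_3h and from 2.02 over 4.37 to 5.11 in MR_3h. In Con_6h they ran from 4.02 over 6.13 to 10.95 units and in MR_6h from 2.12 over 4.01 to 6.12. The groups overlapped, with 3 of 6 MR mice at 6 h below every Con mouse in scaled units. Of these 3, mouse 4214 had a deposited score of 4, as had mice 4222 and 4241 of Con_6h. Deposited values of Cxcl1 ran from 2 to 12, so that few different values were possible here too. The log2 fold change for MR against Con was -0.37 at 3 h (SE 0.28, adjusted p = 0.795) and -0.60 at 6 h (SE 0.28, adjusted p = 0.341), neither of which passed by limma. With single mice left out the estimate at 3 h ran from -0.51 to -0.16, the latter without mouse 4233 of Con_3h. The change with time in Con mice was 0.23, and 0.091 without the 3 libraries that stood apart.

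Cxcl9 encodes a T cell chemokine also known as monokine induced by interferon-gamma. Its levels ran from 6.80 over a median of 8.92 to 23.3 units in Con_3h and from 6.05 over 6.96 to 13.8 in MR_3h. In Con_6h they ran from 5.20 over 11.7 to 24.6 units and in MR_6h from 4.90 over 7.80 to 18.5. Single mice stood far above the rest of their groups, namely 4218 and 4233 in Con_3h, 4223 in MR_3h, 4238 in Con_6h and 4228 in MR_6h. The log2 fold change for MR against Con was -0.52 at 3 h and -0.49 at 6 h, each with an SE of 0.35 and adjusted p-values of 0.775 and 0.529 by limma. At 6 h the estimate ran from -0.71 (without mouse 4228) to -0.29 (without mouse 4238), and without the 3 libraries that stood apart it was -0.16. The change with time was 0.04 in Con mice and 0.07 in MR mice, again with SEs of 0.35. Without those 3 libraries these changes were -0.16 and 0.34. The difference between the diet effects was 0.025, or 0.50 without those 3 libraries.

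Cxcl10 attracts T cells and responds to both kinds of interferon. It was near the lower end of the table, with deposited values of 2 to 7, so that few different values were possible. Levels ran from 1.94 over a median of 4.07 to 6.81 units in Con_3h and from 1.95 over 2.46 to 3.94 in MR_3h. In Con_6h they ran from 2.08 over 4.07 to 5.48 units and in MR_6h from 2.12 over 3.05 to 5.10. The 4 groups overlapped. The log2 fold change for MR against Con was -0.46 at 3 h (SE 0.21, adjusted p = 0.739 by limma) and -0.14 at 6 h (SE 0.21, adjusted p = 0.776), or -0.030 without the 3 libraries that stood apart.

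**Figure D2:**
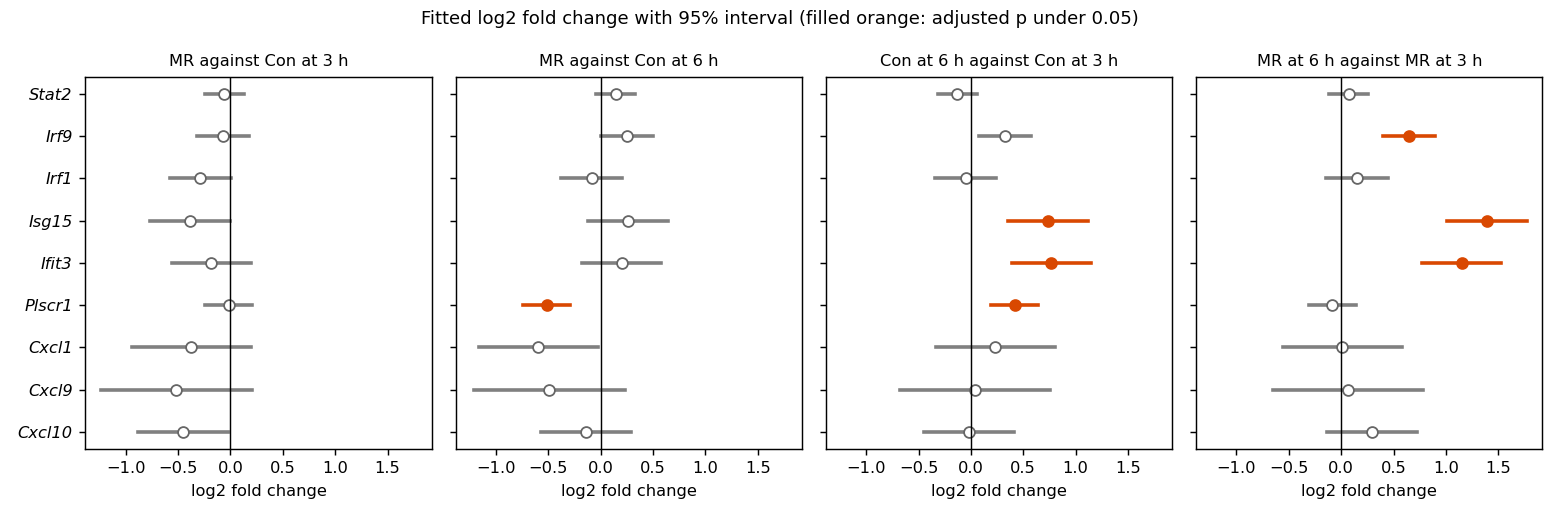
Fitted log2 fold change of each gene in the 4 comparisons of 2 groups. Points are estimates on the log2(scaled units + 1) scale, lines are 95% intervals, and filled orange points passed (adjusted p by limma under 0.05). At 3 h all 9 estimates for MR against Con lie below 0 with no filled point, at 6 h Plscr1 is filled at -0.52, and the time comparisons hold 3 filled points each, all above 0.

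Most of the wider set of interferon-stimulated genes that passed with time rose, as Isg15 and Ifit3 did. Of 67 such genes besides the 9, 55 were listed, and 21 passed as higher and 0 as lower at 6 h against 3 h in Con mice, with a median log2 fold change of 0.30 (all genes -0.01). In MR mice 37 passed as higher and 1 as lower, with a median of 0.44 (all genes -0.01). Over all genes 9.23% were called higher in Con mice and 13.9% in MR mice. The 21 that passed in Con mice all passed in MR mice too, making up 55.3% of the 38 there. The gene that fell in MR mice was Dtx3l, an E3 ubiquitin ligase that pairs with PARP9, at -0.18 (SE 0.07, adjusted p = 0.0373 by limma). No single mouse left out took the count under 20 in Con or 31 in MR mice, and without the 3 libraries that stood apart the counts were 24 and 32.

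Named by smallest p, the wider set included Dhx58, Ddx58, Ube2l6, Parp12 and Usp18. Ddx58 (RIG-I) and Dhx58 (LGP2) are cytosolic sensors of viral RNA. Dhx58 rose by 0.63 in Con mice (SE 0.11, adjusted p = 0.000381 by limma) and by 1.20 in MR mice (SE 0.11, adjusted p = 8.29e-08). Ddx58 rose by 0.61 and 0.87 (SE 0.10). Parp12, an interferon-induced ADP-ribosyltransferase, rose by 0.38 and 0.55 (SE 0.07).

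The genes that attach and remove ISG15 could be read beside Isg15 itself, and were chosen for their role after the values had been seen. Ube2l6, its conjugating enzyme, rose by 0.59 in Con mice (SE 0.10, adjusted p = 0.000222) and 0.84 in MR mice (SE 0.10, adjusted p = 1.67e-06 by limma). Usp18, which removes ISG15 and also dampens receptor signalling, rose by 0.77 and 1.36 (SE 0.17). Herc6, the main ISG15 ligase of the mouse, rose by 0.43 and 0.65 (SE 0.09). Uba7, its activating enzyme, rose by 0.35 in MR mice (SE 0.11, adjusted p = 0.0222), whereas its change of 0.06 in Con mice did not pass (adjusted p = 0.749).

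Between the diets, none of the 55 passed at 3 h or at 6 h, and none passed for the difference between the diet effects. At 3 h, 42 of 55 were below 0 for MR against Con, where the median log2 fold change was -0.10. At 6 h, 41 of 55 were above 0, where the median was 0.08, and without mouse 4241 of Con_6h the count was 32. Zbp1, a nucleic acid sensor, passed as lower at 6 h in that setting. For the difference between the diet effects 43 of 55 were positive, with a median of 0.17. These genes share the same 24 mice and rise and fall together between mice, so the counts are not independent. Upstream windows were matched for 41 of the 55, and 10 of these (24.4%) held the ISRE core, against 3.09% of the 7044 listed genes with a window.

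**Figure D3:**
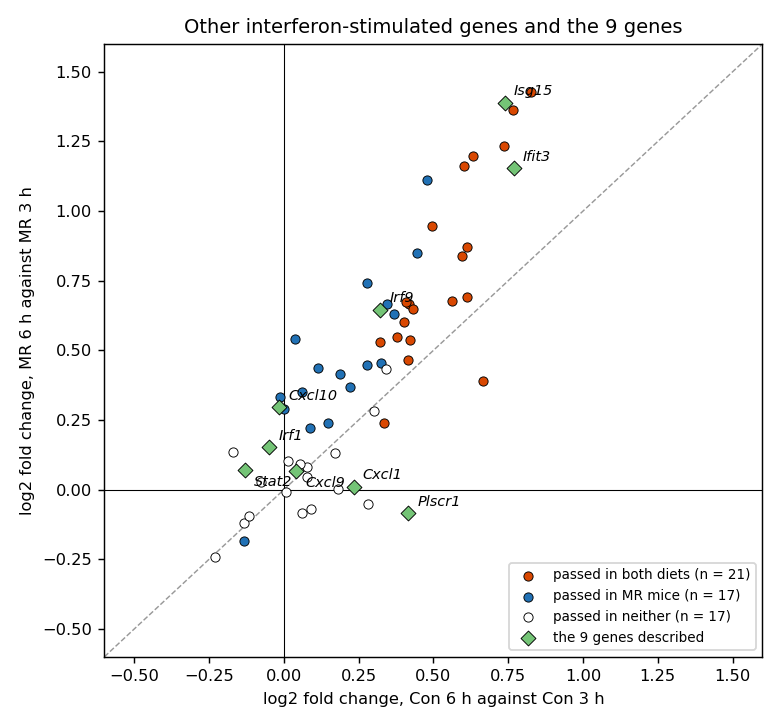
Change from 3 h to 6 h in Con mice (horizontal) against MR mice (vertical), as log2 fold change, for the 55 other interferon-stimulated genes (circles, coloured by where they passed) and the 9 genes (diamonds). The dashed line marks equal change. The 21 genes that passed in both diets lie above 0 on both axes. Isg15 lies at 0.74 and 1.39, and Plscr1 lies at 0.42 and -0.08, below the dashed line.

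Upstream of these genes, the interferon receptors and JAK-STAT signalling genes (20 of 22 listed) held calls in both directions. Over all genes 19.6% were called in Con mice and 28.1% in MR mice, against which this and the following lists are to be read. In Con mice 6 passed as higher and 1 as lower from 3 h to 6 h, and in MR mice 5 as higher and 5 as lower. Usp18, which also belongs to the wider set, was among those that rose. Tyk2, a kinase bound to the type I receptor, rose by 0.28 in Con mice (SE 0.07, adjusted p = 0.00595) and 0.29 in MR mice (SE 0.07, adjusted p = 0.00271 by limma). Ifnar1, a chain of the type I receptor, fell by 0.21 in Con mice and by 0.35 in MR mice (SE 0.06), and passed in both. Ptpn2, a phosphatase that switches off JAK and STAT proteins, fell by 0.30 in MR mice (SE 0.06, adjusted p = 0.000703), and its change of -0.17 in Con mice did not pass (adjusted p = 0.0585). Stat5b, which carries growth hormone signals in liver, rose by 0.50 and 0.68 (SE 0.12).

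Of the other interferon regulatory factors, 9 of 10 were listed. Irf2bp2, a corepressor that binds IRF2, rose by 0.79 in Con mice (SE 0.16, adjusted p = 0.00140) and by 0.86 in MR mice (SE 0.16, adjusted p = 0.000319 by limma). Irf7, the factor that amplifies type I interferon production, rose by 0.44 in MR mice (SE 0.14, adjusted p = 0.0249), and its change of 0.11 in Con mice did not pass (adjusted p = 0.617). Irf2, an antagonist of IRF1, fell by 0.38 in MR mice (SE 0.10, adjusted p = 0.00749). None of the 9 passed between the diets.

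Genes of the interferon-gamma arm, namely the immunity GTPases and antigen presentation, were listed for 19 of 36. In Con mice 2 passed as higher and 1 as lower with time (Psmb10, an immunoproteasome subunit), and in MR mice 6 passed as higher. Counted in either direction, these shares are close to the 19.6% and 28.1% of all genes. All 6 calls in MR mice were higher, where 13.9% of all genes were called higher. In Con mice 9.23% of all genes were called higher. Gbp6, a guanylate-binding GTPase, rose by 0.75 in Con mice (SE 0.19, adjusted p = 0.00669) and by 1.40 in MR mice (SE 0.19, adjusted p = 7.42e-06 by limma). Iigp1, an immunity-related GTPase, rose by 0.64 and 0.65 (SE 0.12). Irgm1_1, Irgm2_1, Gbp7 and Nlrc5 rose in MR mice by 0.52, 0.66, 0.47 and 0.50. The Irgm names carry a numbered suffix as deposited, whose meaning is not known here. Whether reads of these rows are shared with related copies was not tested. Between the diets 0 of 19 passed, and 16 of 19 were negative at 3 h.

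Nucleic acid sensors and their adaptors were listed for 14 of 21. In Con mice 1 passed as higher and 3 as lower, and in MR mice 2 as higher and 5 as lower. The sensors Ddx58, Dhx58, Ifih1 and Zbp1 were counted in the wider set and not here. Of these, Ddx58, Dhx58 and Ifih1 passed as higher in both diets. Mavs, the mitochondrial adaptor below RIG-I, fell by 0.37 in Con mice and by 0.39 in MR mice (SE 0.07), and Zc3hav1, an antiviral zinc-finger protein, rose by 0.30 and 0.56 (SE 0.08). Myd88 and Traf3, adaptors of Toll-like receptor signalling, passed as lower in both diets, with log2 fold changes from -0.31 to -0.26. Ticam1 and Traf6 passed as lower in MR mice, at -0.52 and -0.29.

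Of the NF-kappaB responsive genes (18 of 25 listed), 1 passed as higher and 2 as lower in Con mice and 2 as higher and 1 as lower in MR mice, shares below those of all genes (19.6% and 28.1%). Tnfaip2 rose by 0.72 and 0.84 (SE 0.18), Sod2, the mitochondrial superoxide dismutase, fell by 0.22 and 0.16 (SE 0.05), Bcl3 fell by 0.61 in Con mice (SE 0.16), and Birc3 rose by 0.49 in MR mice (SE 0.14). Without mouse 4220 of Con_3h the Con count was 5 rather than 3. Of 38 other chemokines and chemokine receptors 7 were listed, and Ccl9 passed. Its means were 33.5 ± 7.63 units in Con_3h, 28.7 ± 1.86 in MR_3h, 48.7 ± 4.85 in Con_6h and 40.9 ± 7.85 in MR_6h. Ccl9 thus rose with time by 0.55 in Con mice (SE 0.12, adjusted p = 0.00203) and 0.48 in MR mice (SE 0.12, adjusted p = 0.00368 by limma). Cxcl1, Cxcl9 and Cxcl10 did not pass in either diet, and whether their changes differ from that of Ccl9 was not tested.

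Some of the 9 genes varied together between mice of the same group. With group means removed, Pearson's r over the 24 libraries was 0.72 for Cxcl9 with Cxcl10, 0.71 for Cxcl10 with Ifit3, 0.69 for Isg15 with Ifit3 and 0.68 for Irf9 with Ifit3. Stat2 and Irf9 had r = 0.65, and Cxcl1 and Cxcl9 had r = 0.62. Other pairs lay near or below 0, such as Stat2 with Isg15 (-0.0029), Cxcl1 with Stat2 (0.014) and Cxcl1 with Irf1 (-0.22). Plscr1 had r from -0.42 (Stat2) to 0.23 (Isg15). These are descriptions over libraries that share their processing and scaling, and no p-value was attached.

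**Figure D4:**
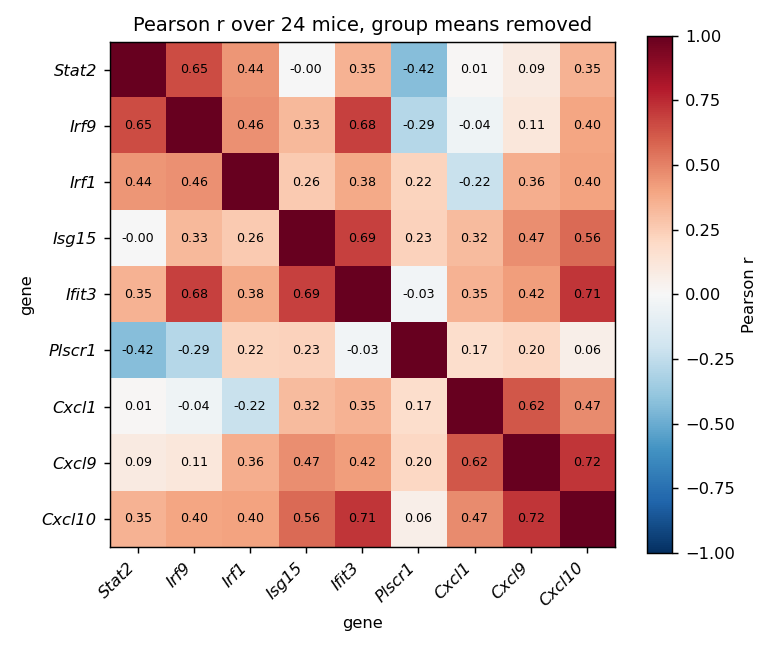
Pearson's r between the 9 genes over 24 mice, computed on log2(scaled units + 1) after removing each group's mean, with red for positive and blue for negative values. Ifit3 has r of 0.68 to 0.71 with Irf9, Isg15 and Cxcl10, and the row of Plscr1 runs from -0.42 to 0.23.

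Among the 5911 genes with a mean of at least 10 units, the gene most like Ifit3 in this sense was Rsad2 (viperin), with r = 0.92, followed by Ifih1 (0.86) and Usp18 (0.85). Irf9 was most like Oasl1 (r = 0.85), Ddx58 (0.84) and Gm4951_1 (0.84), and Isg15 most like Usp18 (0.85), Irf7 (0.77) and Apol9a (0.77). Stat2 was most like Trim14 (0.80), Zc3hav1 (0.79) and Cyb561a3 (0.77), and Irf1 most like Zfp395 (0.85), Oaf (0.79) and Cxcl12 (0.78). Rsad2, Ifih1, Usp18, Oasl1, Ddx58, Irf7, Apol9a and Trim14, as well as Samhd1 named below, belong to the wider set of interferon-stimulated genes. Cxcl9 was most like Cd74 (0.93), the invariant chain of class II antigen presentation, and then Cd52 and Ctss (both 0.81), which leukocytes express strongly. Cxcl10 was most like Samhd1 (0.74), Rsad2 (0.69) and Saa2 (0.69), and Cxcl1 most like Clec2d (0.78), Pgap2 (0.77) and Igfbp2 (0.75). The nearest genes to Plscr1 were Gng10 (0.79), 1700123O20Rik (0.78) and Btf3 (0.77).

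Some mice were the lowest of their group in many of the 9 genes. Mouse 4215 was the lowest of Con_3h in 7 of the 9 genes, mouse 4204 the lowest of MR_3h in 5, and mouse 4241 the lowest of Con_6h in 5. In MR_6h, mouse 4239 lay above the group mean in all 9 and mouse 4242 below it in all 9. Mouse 4231 of Con_6h was also above its group mean in all 9. Mouse 4238, with the high Kupffer cell markers, was the highest of Con_6h in Cxcl1, Cxcl9, Cxcl10, Isg15 and Plscr1 and the lowest in Stat2 and Irf9.

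Kupffer cell and macrophage markers varied most closely with Cxcl9, and less closely with Cxcl1, Plscr1 and Cxcl10. All 19 were listed, and their summed level ran from 793.0 to 1150 units in Con_3h, 729 to 904 in MR_3h, 806 to 2097 in Con_6h and 727 to 879 in MR_6h, with none at 0 throughout a group. With group means removed, r with the log2 of this sum was 0.65 for Cxcl9 (Spearman's rho 0.57), 0.54 for Cxcl1 (rho 0.43) and 0.37 for Cxcl10 (rho 0.34) over 24 libraries. Without mice 4238 and 4233, the farthest on the marker axis, r was 0.55, 0.32 and 0.33 over 22. For Plscr1, r was 0.43 and became 0.37, and it was 0.58 with the summed stellate cell and fibroblast markers and 0.53 with the endothelial markers. For Stat2, Irf9, Irf1, Isg15 and Ifit3, r with the Kupffer cell sum lay between -0.33 and 0.32, and without those mice between -0.05 and 0.23. The chemokines were also set beside the other cell types over 24 libraries. For Cxcl9, Cxcl1 and Cxcl10, r was 0.40, 0.22 and 0.20 with the endothelial markers. With the stellate cell and fibroblast markers it was 0.37, 0.24 and 0.17.

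For MR against Con at 6 h, 18 of these 19 markers lay below 0 with a median log2 fold change of -0.37, and 0 of 19 passed by limma. Refits of these markers without single mice were added after the values had been seen. Without mouse 4238 the median was -0.18, with 18 of 19 again below 0. At 3 h 16 of 19 were negative, with a median of -0.14, and without mouse 4233 of Con_3h 14 of 19, with a median of -0.062. Over all genes 49.9% were negative at 3 h and 51.5% positive at 6 h. The markers share the same mice, so these counts of signs are not independent. From 3 h to 6 h 2 markers passed as higher in Con mice, Lyz2 (0.51, SE 0.18) and Mpeg1 (0.47, SE 0.17), and 1 as lower in MR mice, Cd163 (-0.65, SE 0.13). Without mouse 4238 neither of the first pair passed (Lyz2 0.29, adjusted p = 0.0508, and Mpeg1 0.30, adjusted p = 0.0973 by limma), and the median of the 19 in Con mice went from 0.22 to -0.014. Of 12 Con mice left out in turn, 8 took away the call of Lyz2 and 7 that of Mpeg1, whereas Cd163 passed without each of the 12 MR mice. The part of these markers in the diet differences of the chemokines and of Plscr1 was not tested. Lymphocyte and neutrophil lists had 1 listed marker each of 20 and 14, at a highest value of 10.9 and 6.39 units, both in mouse 4238, so these cells could not be followed. Of the acute phase genes, 18 of 20 were listed, and 3 passed as higher and 2 as lower with time in Con mice, and 1 as higher and 3 as lower in MR mice. Hamp, which encodes hepcidin, and Saa4 fell in both diets. The Con count was 2 without mouse 4231 and 3 without mouse 4222 or 4234 of Con_6h.

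**Figure D5:**
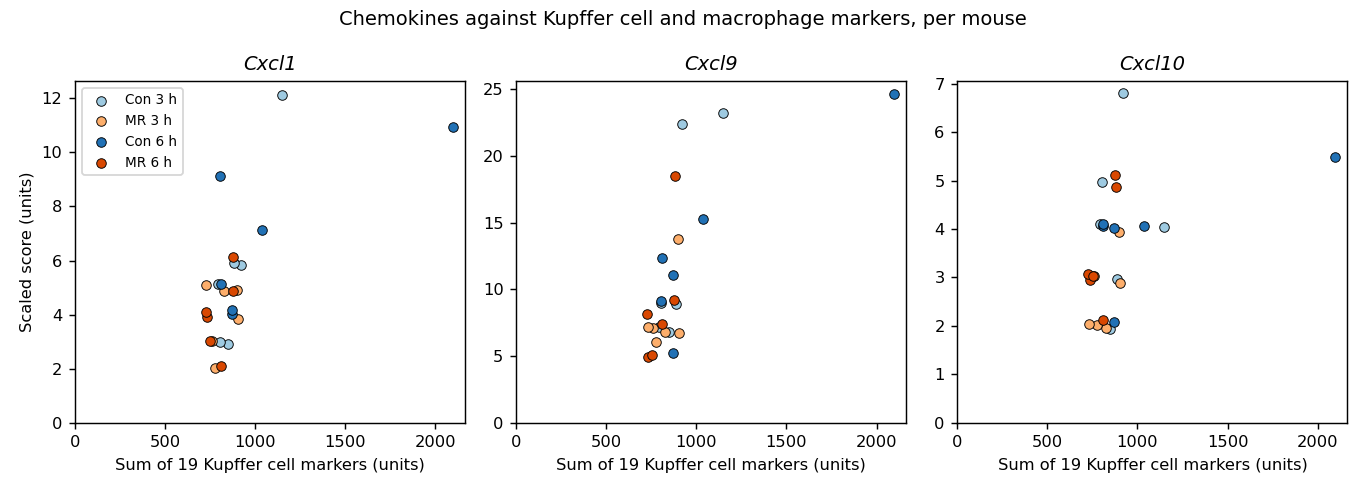
Level of Cxcl1, Cxcl9 and Cxcl10 (vertical, scaled units) against the summed level of 19 Kupffer cell and macrophage markers (horizontal, scaled units) in the same mouse, coloured by group. Each point is 1 of 24 mice. The point farthest to the right is mouse 4238 of Con_6h at 2097 units, and it has the highest Cxcl9 of all mice at 24.6 units.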

How the data were processed

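Liver libraries of 24 mice, 6 per group, were grouped by the submitters' labels, and table columns were matched by mouse number (0 columns were unmapped). The authors made 3′ libraries (Lexogen QuantSeq), mapped and counted them with the Lexogen Quantseq pipeline V1.8.8 and CLC Genomics Workbench. Their processing notes give the build GRCm38 and the tool DESeq2 1.22.2. The deposited values are a score and not read counts: the first table holds whole numbers summing to 991702 to 995314 per library, and in the second the authors divided it by size factors of 0.949 to 1.08. Read depth is unknown, so no counting interval is given, and precision comes from the spread between mice. The lowest gene mean was 3 in the deposited unit. Of 9049 names, 9005 matched RefSeq. The mice are separate animals.

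The first table was scaled by TMM factors (0.945 to 1.10, trimming 30% of log ratios and 5% of means) and tested as log2(value + 1) with limma 3.58.1 (R 4.3.3, trend and robust prior, statmod 1.5.0), with 4 group means over all 24 libraries and Benjamini-Hochberg adjustment over 9049 genes. The code was tested on simulated data. Python 3.11.15, scipy 1.17.1 and matplotlib 3.10.9 gave the permutation tests, correlations and plots. Outliers were sought by Dixon's ratio.

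The 9 genes and the gene lists were chosen with earlier results of these data known. From each other list, the genes named were those passing in any comparison (the 6 with the smallest p if more), or else the 4 with the highest mean, and from cell type marker lists those a result turned on. The 3 most alike genes per member were taken by Pearson's r within groups. Genes named outside this rule (Dtx3l, Zbp1, Herc6, Uba7, Psmb10) were chosen after their values were seen. Alternatives were the authors' size factors, no scaling, pseudocounts of 0.5 and 5, genes with a mean of at least 10 units, only the groups compared, no trend or robust prior, each mouse left out, and the 3 libraries that stood apart left out. The counts of list genes under these alternatives were added after the data were seen. Some genes of the lists are counted but not reported here by name.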

Additional observations from a re-analysis of the deposited data

Results flagged for a closer look

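In 5 of 36 combinations of gene and group (9 genes in 4 groups of 6), the highest or lowest mouse lay farther from its nearest neighbour than Dixon's 95% critical value, as a share of the group's range, both on the log2(scaled units + 1) scale. On the scaled units themselves 4 combinations did. Cxcl9 and Irf9 in MR_3h were flagged on both scales, and Cxcl1 in Con_3h (ratio 0.673) and Cxcl9 in MR_6h (ratio 0.684) only on the scaled units. Ratios given below are those on the log2 scale. Chance flags about 1 in 20. For Cxcl9 in MR_3h the highest mouse was 4223, at 13.8 units, with a ratio of 0.804. This is the library with pancreas markers. For Cxcl10 in Con_6h the lowest mouse was 4241, at 2.08 units (ratio 0.659), and for Isg15 in Con_6h it was the same mouse, at 6.24 units (ratio 0.673). For Irf9 in MR_3h the lowest mouse was 4204, at 22.5 units (ratio 0.697). For Ifit3 in Con_3h the lowest mouse was 4215, at 5.83 units (ratio 0.636).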

How the results depend on the processing

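Over 989 refitted log2 fold changes of the 9 genes, 941 kept their sign and side of the threshold, 38 changed sign (none of them passing), 7 lost and 3 gained a call. The calls of Isg15, Ifit3 and Plscr1 in Con mice and of Isg15, Ifit3 and Irf9 in MR mice between the times held in every alternative that could be run. The number of the 9 genes passing in MR against Con at 6 h fell from 1 to 0 with only the groups compared and without the 3 libraries that stood apart, and lay between 0 and 1 with single mice left out. The cause was not tested. The count of other interferon-stimulated genes passing in MR against Con at 6 h lay between 0 and 1 with single mice left out, and the counts with time were 15 and 26 among genes with a mean of at least 10 units, where fewer genes were tested. With only the groups compared, the counts with time in Con mice fell to 4 for the receptor and JAK-STAT genes, 1 for the interferon-gamma genes, 1 for the regulatory factors and 2 for the acute phase genes, and the filter at 10 units left 2 interferon-gamma genes in MR mice. Without the 3 libraries the Con counts were 9 for the receptor and JAK-STAT genes, 4 for the NF-kappaB responsive genes and 6 for the acute phase genes. In MR mice they were then 4 for the NF-kappaB responsive genes and 4 for the regulatory factors. Sign changes without a call came for Cxcl1 in MR mice with time under no scaling (-0.0068), for Cxcl9 in Con mice with time (-0.16) and for Plscr1 between the diets at 3 h (0.0194) without the 3 libraries. With single mice left out, ranges crossing 0 were -0.12 to 0.14 for Cxcl1 in MR mice with time, -0.16 to 0.13 for Cxcl10 and -0.16 to 0.25 for Cxcl9 in Con mice with time, -0.16 to 0.22 for Cxcl9 in MR mice with time and -0.20 to 0.22 for its difference between diet effects. They were -0.14 to 0.047 for Irf1 in Con mice with time, -0.13 to 0.0024 for Irf1 between the diets at 6 h, and, between the diets at 3 h, -0.18 to 0.027 for Irf9, -0.063 to 0.030 for Plscr1 and -0.12 to 0.035 for Stat2. The filter at 10 units gave no value for genes under it. No paired analysis was possible because each mouse number is unique to 1 mouse and no number is shared between groups.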
